A study of Mus musculus with 2 samples.

Results

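Trem2 Cd9 gated cells were cells sorted as macrophages from mouse epididymal adipose tissue that held transcripts of *Cd9* together with transcripts of *Trem2*, *Mmp12*, *Hilpda*, *Mmp19* or *Dcstamp*, genes used to mark lipid-associated macrophages (LAMs). They were chosen from single-cell counts of unique molecular identifiers (UMIs, 1 per captured transcript) by a fixed rule. A kept cell had 200 to 3500 genes and at most 10% of its UMIs from mitochondrial genes, and a gated cell was a kept cell with at least 1 UMI of *Cd9*, at least 2 UMIs summed over the other 5 genes, and 0 UMIs of the endothelial genes *Pecam1*, *Kdr* and *Flt1*. The rule found 107 gated cells among 4385 kept cells, 55 of 2364 in the control diet library and 52 of 2021 in the high-fat diet library.

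The study compared adipose tissue macrophages (ATMs) of adult male C57/BL6 mice kept on a control diet (CD) with those of mice given a high-fat diet (HFD) overnight. Cells were freed from the fat with enzymes and sorted by flow cytometry as CD45+Lin-Ly6Clow/-F4/80+ macrophages, where Lin- leaves out T and B cells, eosinophils and neutrophils. The labels name no transgene, deletion or drug in either group, and both groups went through the same dissociation and sort. Cells of 3 mice were pooled into 1 library per diet with 10x Genomics 3′ chemistry, so the mice of a diet cannot be told apart, each diet had no replicate, and a diet difference below is a difference between 2 libraries. Over all its 4459 barcodes the CD library had 15003119 UMIs, and over its 3163 barcodes the HFD library had 9164686. No test was made and no p-value is given. All intervals are at the 95% level and reflect counting error alone, not the spread between cells or mice. The libraries shared 14 cell barcodes among all barcodes, and 2 gated cells of CD and 0 of HFD had a shared one.

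LAMs are macrophages that gather around dying adipocytes in obese fat. TREM2 is a surface receptor for lipids, lipoproteins and cell debris that signals through TYROBP (DAP12), and CD9 is a tetraspanin of the plasma membrane and of secreted vesicles. The known LAM program covers lipid uptake and hydrolysis (LPL, CD36, LIPA), fatty acid binding (FABP4, FABP5), storage in droplets (PLIN2) and lysosomal breakdown (cathepsins, CD63).

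The 3 promoters printed here belong to genes that were at least 2-fold higher in gated than in other kept cells of both libraries, and are shown because they hold a searched motif. They run from 250 bases before to 50 bases after a start site of RefSeq (GRCm38.p6), 5′ to 3′ on the strand of the gene, with the motif in capitals. *Itgax* encodes CD11c, the integrin used to sort the ATMs that accumulate in obesity (chr7:128129300-128129599, plus strand). *Rnh1* encodes the cytosolic ribonuclease inhibitor (chr7:141168637-141168936, minus strand, 1 of its promoters). *Gdf15* encodes a secreted stress hormone (chr8:70632046-70632345, minus strand).
*Itgax*, TGANTCA: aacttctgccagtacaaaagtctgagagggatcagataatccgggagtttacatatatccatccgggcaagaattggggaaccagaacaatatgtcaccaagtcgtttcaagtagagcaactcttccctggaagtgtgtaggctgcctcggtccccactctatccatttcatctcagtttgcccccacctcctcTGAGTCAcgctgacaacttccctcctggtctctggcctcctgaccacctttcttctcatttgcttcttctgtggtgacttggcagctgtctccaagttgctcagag
*Rnh1*, TGANTCA: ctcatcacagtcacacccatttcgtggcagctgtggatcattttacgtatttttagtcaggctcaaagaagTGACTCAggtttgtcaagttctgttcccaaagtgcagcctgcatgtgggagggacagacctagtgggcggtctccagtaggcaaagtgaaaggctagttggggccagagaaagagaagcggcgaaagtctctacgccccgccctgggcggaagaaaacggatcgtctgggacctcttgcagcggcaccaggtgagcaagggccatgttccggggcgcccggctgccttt
*Gdf15*, CACGTG: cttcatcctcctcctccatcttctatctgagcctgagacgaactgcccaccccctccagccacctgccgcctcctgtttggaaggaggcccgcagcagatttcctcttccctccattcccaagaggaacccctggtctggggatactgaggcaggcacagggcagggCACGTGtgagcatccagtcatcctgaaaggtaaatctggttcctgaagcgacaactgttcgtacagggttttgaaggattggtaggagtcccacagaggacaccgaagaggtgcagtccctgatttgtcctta

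The share of gated cells was 2.33% in CD (1.76 to 3.02%) and 2.57% in HFD (1.93 to 3.36%). The HFD share was 0.246 percentage points above the CD share, with an interval from -0.671 to 1.197 that spans 0. The rule counts UMIs, and gated cells were deep: their median was 9132 UMIs in CD and 7274 in HFD, against 4387 and 2704 UMIs in the other kept cells. Their median mitochondrial share was lower, at 2.42% and 2.58% against 4.22% and 3.66%. Cells with fewer than 1000 genes made up 14.4% of the kept CD cells and 40.8% of the kept HFD cells, against 0 of 55 gated CD and 1 of 52 gated HFD cells.

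With limits on depth, the share was higher in HFD in some ranges and could not be told apart in others. Among kept cells with at least 1000 genes, 55 of 2023 CD cells (2.72%) and 51 of 1196 HFD cells (4.26%) were gated, a difference of 1.55 points (0.258 to 2.99). This limit is a floor and does not match depth. Between 2000 and 4000 UMIs, 2 of 738 CD and 7 of 474 HFD cells were gated, a difference of 1.21 points (0.165 to 2.76). Between 4000 and 8000 UMIs the shares were 2.17% (20 of 920) and 4.92% (24 of 488), a difference of 2.74 points (0.775 to 5.16). Between 8000 and 12000 UMIs they were 5.57% (16 of 287) and 6.03% (14 of 232), a difference of 0.46 points (-3.61 to 4.84). At 12000 UMIs or more they were 14.4% (17 of 118) and 11.3% (6 of 53), which could not be told apart at this depth (-12.7 to 9.32 points). When each cell was thinned to 2000 UMIs before the gate, in 20 random draws, the gate was met in CD by a median of 10 of 2063 cells (range 5 to 16, median 0.485%). In HFD it was met by 18 of 1247 cells (range 15 to 25, median 1.44%), and the difference ran from 0.668 to 1.62 points. Thinning left out 301 CD and 774 HFD cells as too shallow, and the same cells before thinning had shares of 2.67% and 4.09%. At 4000 UMIs the thinned medians were 24 of 1325 CD and 27.5 of 773 HFD cells, with differences from 0.701 to 2.48 points.

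**Figure D1:**
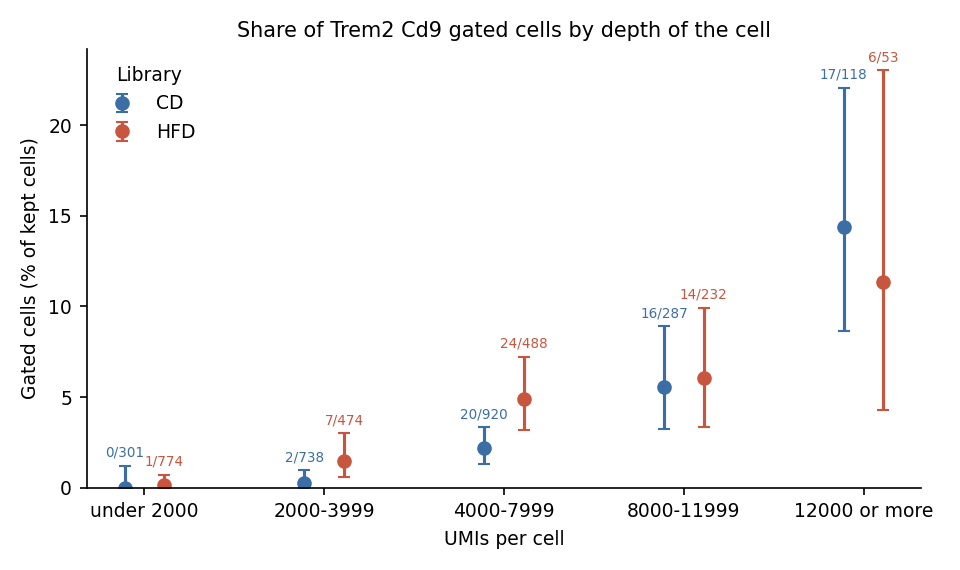
Gated cells as a percent of kept cells (y) in 5 ranges of UMIs per cell (x), for CD (blue) and HFD (red), with exact 95% binomial intervals and the cells behind each point. The share is 0 (CD) and 0.129% (HFD) below 2000 UMIs and reaches 14.4% and 11.3% at 12000 UMIs or more.

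The gate was met in different ways. All gated cells held *Cd9* by the rule, 28 of 55 in CD and 24 of 52 in HFD with a single UMI. *Trem2* was seen in 31 of the 55 CD cells and 27 of the 52 HFD cells, so 24 CD and 25 HFD cells entered without it. *Dcstamp*, which encodes a membrane protein needed for fusion of macrophages and osteoclasts, was seen in 22 and 23 cells. *Hilpda*, which encodes a lipid droplet protein induced by hypoxia and fatty acids, was seen in 21 and 25 cells. *Mmp19* and *Mmp12*, both secreted metalloproteinases, were seen in 19 and 23 cells and in 12 and 16 cells. A single gene of the 5 supplied the whole sum in 22 CD and 18 HFD cells, 17 and 6 of them through *Trem2* alone, and 3 or more genes were seen in 12 and 21 cells.

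Levels are UMIs of a gene summed over cells, per 1000000 UMIs of those cells (CPM). The values of the gate genes chose the cells and are given as a description. *Trem2* (ENSMUSG00000023992, chromosome 17, 48346401 to 48354147) was at 205 CPM in gated and 78.8 CPM in other CD cells, and at 320 CPM in gated and 27.0 CPM in other HFD cells. Among other kept cells, 26.3% held a *Trem2* UMI in CD and 7.16% in HFD. *Cd9* (chromosome 6, 125460266 to 125494791) was at 281 and 385 CPM in gated cells and at 20.9 and 22.2 CPM in the others. *Mmp12* (chromosome 9, 7344381 to 7369499) was at 500 CPM in gated CD cells and 601 CPM in gated HFD cells, but 1 HFD cell held 124 of the HFD UMIs, or 52.3%. Cells just inside and just outside the threshold differed little in depth. A sum of exactly 2 UMIs was held by 20 CD and 11 HFD gated cells, with a median of 7897 and 7261 UMIs per cell. A sum of 1 with *Cd9* and no endothelial UMI was held by 38 CD and 13 HFD cells, with 7628.5 and 7036 UMIs. The largest sums were 78 and 139 UMIs. Cells with a sum of at least 2 and no *Cd9* numbered 355 in CD and 284 in HFD, and 2 further cells in each library met the gate but for an endothelial UMI. The part of free RNA was not measured, since no group of cells could be taken to lack the gate genes. At least 5 UMIs of T or NK cell markers were seen in 2 CD cells and 1 HFD cell, and of endothelial markers in 7 and 3 cells. At least 5 UMIs of B cell markers were seen in 114 CD and 8 HFD cells, and of the 114, 48.2% held a *Trem2* UMI and 2.63% a *Cd9* UMI, at a median of 6180 UMIs per cell. A *Cd9* UMI was seen in 4.63% of all other kept CD cells and 3.40% of all other kept HFD cells, and how many of the gated cells with a single *Cd9* UMI held it from free RNA was not tested.

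**Figure D2:**
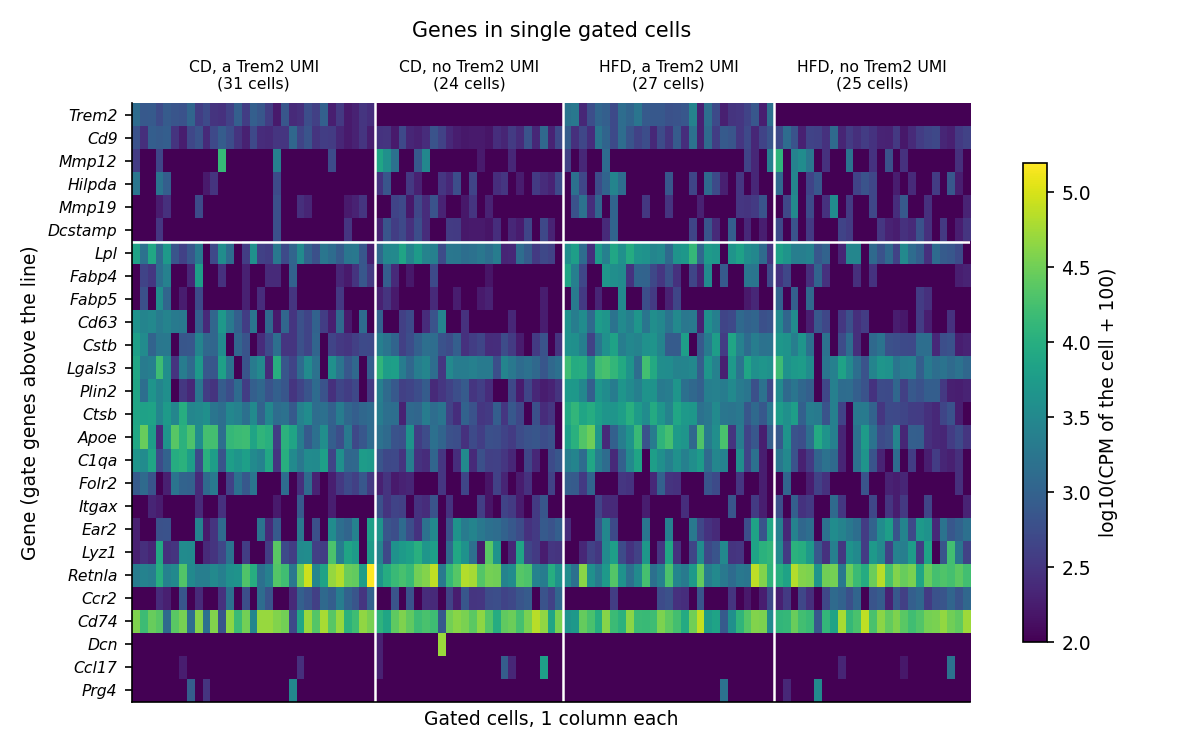
Each column is 1 of the 107 gated cells, grouped by library and by the presence of a *Trem2* UMI, and each row is a gene, with gate genes above the white line and colour as log10 of the cell's CPM plus 100. *Apoe* and *Ctsb* are seen in every column with a *Trem2* UMI, *C1qa* in all 31 CD and 24 of 27 HFD columns and *Cd63* in 27 of 31 and all 27, while *Lpl*, *Lgals3*, *Retnla* and *Cd74* are seen in all 4 blocks, and *Dcn*, *Ccl17* and *Prg4* are bright in single cells.

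The label of macrophage held for the summed gated cells, though not for each cell. All 10 macrophage markers, among them *Adgre1*, *Csf1r*, *Mertk* and *Lyz2*, were detected in both libraries, with a sum of 21469 CPM in CD and 19338 CPM in HFD, against 15370.3 and 21364 CPM in the other kept cells. *Lyz2* gave most of it, at 18881 and 16597 CPM in gated and 12282 and 18173 CPM in other cells, and the other 9 markers summed to 2587 and 2742 CPM in gated and 3088 and 3191 CPM in other cells. Of the 8 markers counted, 0 were higher and 2 lower in gated CD cells, and 1 was higher and 1 lower in HFD. Defining markers of other cells were at 0 in the gated cells of both libraries: *Cdh5*, *Cldn5* and *Tie1* of endothelium, *Adipoq*, *Plin1* and *Lep* of adipocytes, *Cd3e*, *Trac* and *Ncr1* of T or NK cells, *Cd79a* of B cells, and all 7 mast cell or basophil markers. The 10 endothelial markers summed to 266 CPM in CD and 639 CPM in HFD, against 278 and 201 CPM in the other kept cells. Of the gated sums *Fabp4*, also a macrophage gene, gave 251 and 624 CPM. The 10 T or NK markers summed to 43.7 and 40.6 CPM, all of it *Il7r*, against sums of 6.55 and 10.4 CPM in the other kept cells. The 8 B cell markers summed to 91.2 and 45.7 CPM, of which *Ighm* gave 77.9 and 43.1 CPM, against sums of 263 and 121 CPM in the other kept cells. The 10 adipocyte markers summed to 41.8 and 43.1 CPM, with *Cfd* the highest at 13.3 and 12.7 CPM, against sums of 124 and 75.8 CPM in the others.

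A few gated cells held the markers of other cells. Stromal genes (at least 5 UMIs), *Prg4* (at least 3 UMIs), a peritoneal macrophage marker, or *Ccl17* (at least 5 UMIs), a chemokine of dendritic cells, were seen in 6 of 55 CD and 3 of 52 HFD gated cells, against 14 of 2309 and 16 of 1969 other kept cells. *Dcn*, a fibroblast proteoglycan, was at 908 CPM in gated CD cells and 0 in gated HFD cells, and 1 CD cell held 99.8% of it, with 477 UMIs of *Dcn* beside 2 of *C1qa*. *Mgp* came wholly from 1 CD cell (266 CPM), and *Ccl17* in CD to 87.9% from 1 cell (173 CPM), with 80 UMIs of *Ccl17* and 0 of *C1qa*. The 10 stromal markers summed to 1541 CPM in gated and 185 CPM in other CD cells and to 98.9 and 82.9 CPM in HFD. The 8 peritoneal macrophage markers summed to 275 and 22.9 CPM in CD and to 162 and 80.1 CPM in HFD, with *Prg4* the highest. The 9 dendritic cell markers summed to 258 and 188 CPM in CD and to 218 and 146 CPM in HFD, with *Ccl17* the highest in CD and *Cd209a* in HFD. The named ratios that changed sign or fell within 2-fold without these cells are given in the closing section. The part of these cells in the gene lists below was not tested.

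Among the genes counted in each library (a mean of at least 50 CPM over both groups, gate genes left out), 64 of 2392 were at least 2-fold higher in gated than in other CD cells (2.68%) and 117 were at least 2-fold lower (4.89%). In HFD, 69 of 2379 were higher (2.9%) and 62 lower (2.61%). In both libraries 20 of 2181 genes were higher (0.917%) and 38 lower (1.74%). Since the gate chose the cells, these are descriptions of what came with the gate genes. The counts in both libraries moved with the settings, from 7 lower genes with cells weighted to like UMIs per cell and 16 with at least 1000 genes per cell to 75 after thinning to 2000 UMIs and 88 with the mean of single-cell CPM. The last 2 settings gave 110 and 35 higher genes. The thinned counts came from 8 gated CD and 17 gated HFD cells of 2000 UMIs each. Few UMIs thus stood behind a gene near the limit of 50 CPM. Of the 38, 10 were in the list of resident identity genes and 3 were haemoglobins.

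*Lpl*, *Fabp5*, *Cstb* and *Lgals3* were among the genes higher in both libraries. *Lpl* (chromosome 8, 68880491 to 68907448), the lipase that frees fatty acids from triglyceride-rich lipoproteins, was at 1738 CPM in gated and 735 CPM in other CD cells (log2 ratio 1.24, 1.14 to 1.34), and at 2506 and 771 CPM in HFD (1.70, 1.60 to 1.80). It was seen in 52 of 55 and 48 of 52 gated cells, with 0 to 75 UMIs per cell in CD (median 11) and 0 to 67 in HFD (median 14), and the 8 highest CD cells held 49.0% of its gated CD UMIs. *Fabp5*, a fatty acid binding protein, was at 156 and 46.3 CPM in CD (1.75) and at 175 and 43.9 CPM in HFD (1.99), but 1 CD cell held 58.5% of its gated UMIs and the CD ratio without that cell was 0.52. *Cstb*, an inhibitor of lysosomal cathepsins, was at 805 and 379 CPM in CD (1.09) and at 1917 and 555 CPM in HFD (1.79), and without 1 CD cell its CD ratio was 0.86. *Lgals3* (chromosome 14, 47367751 to 47386160), which encodes galectin-3, a lectin of phagocytes that binds damaged lysosomes, was at 2768 and 801 CPM in CD (1.79, 1.71 to 1.87) and at 5120.4 and 1828 CPM in HFD (1.49, 1.42 to 1.55). Of these 4 genes, *Lpl*, *Cstb* and *Lgals3* were each seen in at least 48 gated cells of both libraries. With cells weighted to like UMIs per cell, the CD ratio of *Lpl* was 0.88.

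Further genes were higher in gated cells of both libraries. *Itgax* (chromosome 7, 128129547 to 128150657) was at 104 CPM in gated and 27.0 CPM in other CD cells (1.95, 1.51 to 2.37), and at 109 and 23.7 CPM in HFD (2.20, 1.69 to 2.69), seen in 22 and 20 gated cells. The CD ratio of *Itgax* was 0.31 when a *Trem2* UMI was required. *Rgs1*, a brake on chemokine receptor signalling, was at 304 and 117 CPM in CD (1.37) and at 989 and 371 CPM in HFD (1.42), and its CD ratio was 0.89 with cells weighted to like UMIs per cell. *Malt1*, *Tnip3*, *Evl* and *Lat2*, which act in NF-κB signalling, in the actin skeleton and in receptor signalling, had log2 ratios of at least 1.07 in CD and from 1.12 to 1.41 in HFD. *Avpi1* had ratios of 1.24 and 1.29, and *Rnh1* of 1.11 and 1.27. When a *Trem2* UMI was required, the CD ratios of *Malt1*, *Tnip3* and *Avpi1* were 0.37, -0.14 and -0.19. After thinning to 2000 UMIs that of *Tnip3* was -0.61, and the HFD ratios of *Lat2*, *Evl*, *Avpi1* and *Rnh1* were -0.31, 0.88, 0.52 and 0.93. The thinned ratios here and below came from 8 gated CD and 17 gated HFD cells. For a gene at a low level they rest on few UMIs. With cells weighted to like UMIs per cell, the CD ratios of *Avpi1*, *Rnh1*, *Lat2* and *Tnip3* were 0.75, 0.91, 0.71 and 0.53, and the HFD ratio of *Tnip3* was 0.85. Without the gated cell with the most UMIs of the gene, *Avpi1* (0.96 and 0.90), *Tnip3* (0.98 and 0.97) and, in CD, *Rnh1* (0.89) and *Lat2* (0.86) were within 2-fold.

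Of the higher genes, 2 rested on few cells. *Gdf15* was at 141 CPM in gated and 17.4 CPM in other CD cells (3.01) and at 117 and 46.0 CPM in HFD (1.34), but was seen in 5 CD and 7 HFD gated cells, and 1 CD cell held 51.4% of it. With the mean of single-cell CPM, the HFD ratio of *Gdf15* was 0.93, within 2-fold. *Gngt2*, a subunit of heterotrimeric G proteins, was at 165 and 14.1 CPM in CD (3.55) and at 73.5 and 32.9 CPM in HFD (1.16), from 12 and 10 cells, with 48.3% of the HFD UMIs in 1 cell and a ratio of 0.25 without it.

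Haemoglobin transcripts gave the lowest ratios. *Hba-a1* was at 7.60 CPM in gated and 243 CPM in other CD cells (-5.00) and at 5.07 and 244 CPM in HFD (-5.59). *Hbb-bs* was at 32.3 and 393 CPM in CD (-3.61) and at 7.61 and 495 CPM in HFD (-6.02). *Hba-a2* was at 9.50 and 186 CPM in CD (-4.29), and at 0 in gated HFD cells against 187 CPM in the others, at least 24.6-fold lower by a floor of 3 UMIs (7.61 CPM). Without the 1026 of 1442 UMIs that 1 other HFD cell held, this bound was 7.11-fold. In each library 1 other kept cell held 65.5 to 75.3% of the haemoglobin UMIs of the other cells, and without it the finite ratios ran from -4.49 to -1.88. A UMI of an erythroid marker was seen in 16 of 55 gated and 610 of 2309 other CD cells, and in 5 of 52 and 153 of 1969 HFD cells. With the cells that held stromal, *Prg4* or *Ccl17* UMIs left out, the CD ratios of *Hba-a1*, *Hba-a2* and *Hbb-bs* were -0.53, 0.0457 and 0.128. With at least 1000 genes per cell, the HFD ratios of *Hba-a1* and *Hbb-bs* were 1.08 and -0.15.

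Genes of resident macrophages were also on the lower side. *Cd209f*, a C-type lectin of resident ATMs, was at 76.0 CPM in gated and 828 CPM in other CD cells (-3.45), and at 33.0 and 152 CPM in HFD (-2.21). *F13a1*, the coagulation factor XIII subunit made by resident macrophages, was at 308 and 1151 CPM in CD (-1.90) and at 117 and 458 CPM in HFD (-1.97). *Gas6*, a bridging ligand for the clearance of apoptotic cells, had ratios of -1.89 and -2.18, and *Maf*, a transcription factor of resident macrophages, of -1.68 and -1.90. *Ednrb*, an endothelin receptor, had ratios of -2.50 and -2.10, *Ms4a6b* of -1.92 and -1.87, and *Mucl1* of -3.55 and -3.64. With cells weighted to like UMIs per cell, *Gas6* (-0.73 and -0.69), *Maf* (-0.74 and -0.90) and, in HFD, *Ednrb* (-0.82) were within 2-fold, and after thinning to 2000 UMIs *Cd209f* and *Ms4a6b* in HFD were too (-0.37 and -0.74). When a *Trem2* UMI was required, *Ms4a6b* and *Maf* in CD were at -0.91 and -0.98. Of all named genes, *Lgals3*, *F13a1* and *Mucl1* differed at least 2-fold between gated and other cells in both libraries under every alternative that gave a value. They also did so without the cell with the most UMIs of the gene. That cell was a gated cell for *Lgals3* and an other kept cell for *F13a1* and *Mucl1*.

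**Figure D3:**
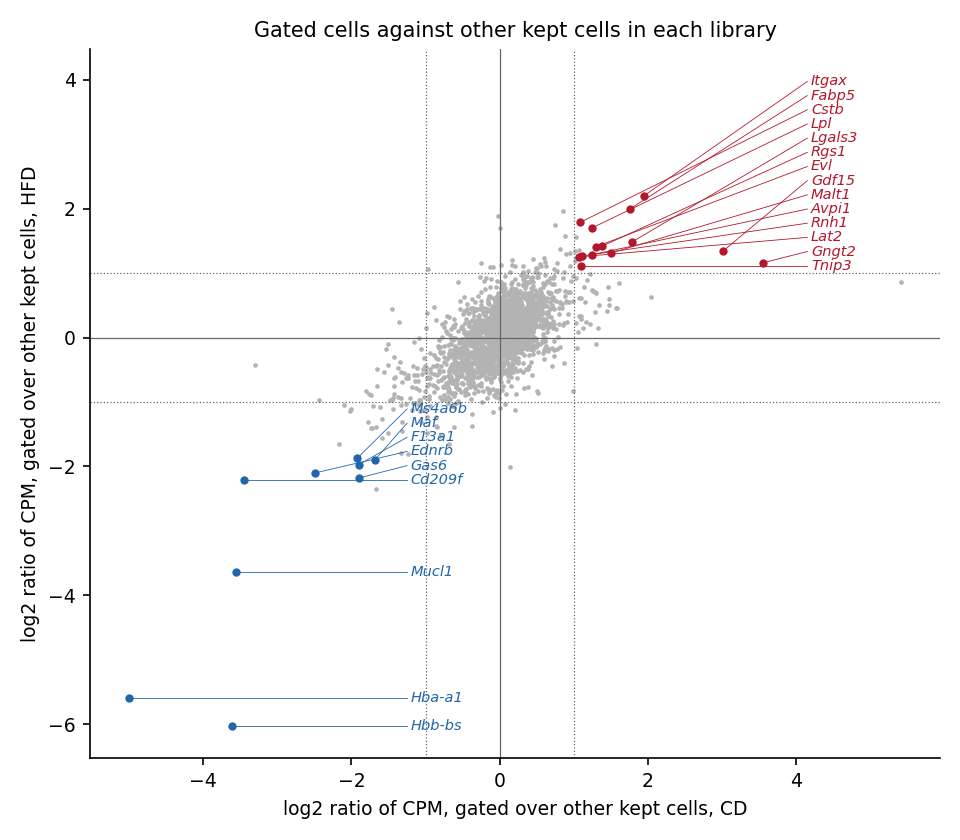
Log2 ratio of CPM in gated over other kept cells in CD (x) and HFD (y) for each gene counted in both libraries, with the named higher genes in red, the named lower genes in blue and dotted lines at 2-fold. *Lpl*, *Itgax*, *Lgals3* and *Cstb* lie past 2-fold on both axes, and *Hba-a1* and *Hbb-bs* lie at the lower left, while *Hba-a2* is not drawn because it was at 0 in gated HFD cells.

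Gene lists put these genes in context. Of the 30 genes of the LAM program, none of them a gate gene, 24 could be counted in CD, with 10 higher, 1 lower and a median log2 ratio of 0.74 against 0.03 over all genes counted. In HFD, 16 of 25 were higher and 0 lower, with a median of 1.23 against 0.10. *Lipa*, lysosomal acid lipase, was at 285 and 139.9 CPM in CD (1.03) and at 302 and 129 CPM in HFD (1.23). *Cd63*, a lysosomal tetraspanin, was at 650 and 386 CPM in CD (0.75) and at 1182 and 352 CPM in HFD (1.75). *Plin2*, which coats lipid droplets, was at 785 and 331 CPM in CD (1.25) and at 1666 and 999 CPM in HFD (0.74). The 1 lower gene in CD was *Apoe*, the apolipoprotein secreted by lipid-laden macrophages, at 4003 and 8740.3 CPM in CD (-1.13) and at 4083 and 7013 CPM in HFD (-0.78). *Spp1* and *Gpnmb*, strong LAM genes in obesity, fell below the level needed to be counted, at 41.8 and 20.9 CPM in gated CD cells and at 17.8 and 5.07 CPM in gated HFD cells.

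The other lists are given by count and median, to be read against 2.68% of all genes higher and 4.89% lower in CD (median 0.03) and 2.9% and 2.61% in HFD (median 0.10). Of the lipid uptake and binding genes, 4 of 8 were higher in CD (median 0.77) and 4 of 10 in HFD (0.74). Glycolysis and hypoxia genes had a ratio above 0 for 12 of 12 in CD (median 0.60) and 8 of 11 in HFD (0.51), but only *Pfkp* in CD was 2-fold higher. Of the resident identity genes, 0 were higher and 16 of 20 lower in CD (-1.65), and 0 higher and 12 of 18 lower in HFD (-1.18). Cell by cell, this list took a median of 0.570% of the UMIs of gated CD cells and 2.47% of other CD cells with at least 1000 genes. In HFD these medians were closer, at 0.356% and 0.414%, and 22 of 52 gated cells lay above that of the others. Complement genes had medians of -0.60 and -0.54, and cholesterol efflux and LXR genes of -0.79 and -0.45. MHC class II genes stayed within 2-fold in both libraries (0.19 and -0.26), as did the genes of oxidative phosphorylation (0.15 and 0.29). Immediate early and heat shock genes, which respond to tissue dissociation, had medians of -0.37 and -0.52, with 3 of 17 lower in CD and 2 of 18 lower in HFD.

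The gated cells were also set against 2 populations of other kept cells. Cells with UMIs of *Lyve1* and *Folr2* and at least 1000 genes, which mark resident ATMs, numbered 992 in CD and 177 in HFD without gated cells. Cells with *Ear2* and at least 2 UMIs of *Lyz1* but no *Lyve1*, genes of recently recruited ATMs, numbered 486 and 658, also with at least 1000 genes and without gated cells. Of the gated cells themselves, 27 of 55 in CD and 26 of 52 in HFD met this Ear2 Lyz1 rule. The Lyve1 Folr2 rule was met by 6 and 5 gated cells. The genes that chose the 2 populations stand in the counts over all genes below and are left out of the lists.

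Against the Ear2 Lyz1 cells, which were close in depth (medians of 7648.5 and 6378.5 UMIs), 50 of 2289 genes were at least 2-fold higher in gated CD cells (2.18%) and 11 lower (0.481%). In HFD, 86 of 2312 were higher (3.72%) and 28 lower (1.21%). The LAM program had 13 of 24 genes higher in CD (median 1.02, 0.03 over all genes) and 20 of 25 in HFD (1.46, 0.10 over all genes), and all 24 and all 25 had a ratio above 0. *Cd63* was at 650 CPM in gated CD cells and 89.6 CPM in Ear2 Lyz1 cells (2.86, 2.64 to 3.08), and at 1182 and 149 CPM in HFD (2.98, 2.81 to 3.16). *Apoe* was higher in gated cells here, at 4003 and 2304 CPM in CD (0.80) and at 4083 and 2885 CPM in HFD (0.50).

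Against the Lyve1 Folr2 cells, 137 of 2410 genes were higher in gated CD cells (5.68%) and 218 lower (9.05%), and in HFD 151 of 2451 were higher (6.16%) and 244 lower (9.96%). The LAM program had 9 of 24 genes higher in CD (0.65) and 12 of 25 in HFD (0.78), and resident identity genes, without *Lyve1* and *Folr2*, 16 of 18 and 16 of 17 lower. The choice of cells used 2 genes of that list, so its direction is a description. *Lgals3* was at 2768 CPM in gated CD cells and 473 CPM in Lyve1 Folr2 cells (2.55), and at 5120.4 and 1061 CPM in HFD (2.27). *Apoe* was lower in gated cells, at 4003 and 13547 CPM in CD (-1.76) and at 4083 and 15064 CPM in HFD (-1.88). *Cd63* differed by less than 2-fold (0.21 and 0.61). Glycolysis and hypoxia genes were higher for 7 of 11 in each library (1.04 and 1.02), while against the Ear2 Lyz1 cells none of 12 was 2-fold higher in either (0.20 and 0.23). The *Apoe* level summed over all gated cells thus lay between those of the 2 comparison populations in both libraries. By the same sums *Lgals3*, *Lpl*, *Cstb*, *Itgax* and *Cd63* had ratios above 0 against either. In gated cells without a *Trem2* UMI, however, *Apoe* was at 773 CPM in CD and 1123 CPM in HFD, below both populations. In gated CD cells with a *Trem2* UMI, *Itgax* was at 37.4 CPM, below the 51.1 CPM of the Ear2 Lyz1 cells.

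The gated cells were not uniform, and the presence of *Trem2* divided them. The 31 CD and 27 HFD cells with a *Trem2* UMI had medians of 8221 and 6483 UMIs, and the 24 and 25 cells without one had medians of 10007 and 8369 UMIs. The division rests on a gate gene, so cells without *Trem2* entered through *Mmp12*, *Hilpda*, *Mmp19* or *Dcstamp*. Of 2331 genes counted in CD, 220 were at least 2-fold higher with a *Trem2* UMI (9.44%) and 156 lower (6.69%). In HFD, 235 of 2414 were higher (9.73%) and 151 lower (6.26%), and in both libraries 75 of 2056 were higher (3.65%) and 37 lower (1.8%). Each side held 24 to 31 cells, so a single cell weighs more in these counts than in those above. Markers of other cells moved with the division. Peritoneal macrophage markers summed to 508 CPM with and 34.8 CPM without a *Trem2* UMI in CD and to 241 and 85.3 CPM in HFD, with *Prg4* at 187 and 0 CPM in CD and at 87.2 and 55.2 CPM in HFD. Dendritic cell markers summed to 33.6 and 491 CPM in CD and to 41.0 and 391 CPM in HFD, and stromal markers to 149 and 2981 CPM in CD and to 154 and 45.1 CPM in HFD. Their part in the division was not tested.

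*C1qa*, *Apoe*, *Fabp4*, *Ctsb* and *Cd63* were higher on the *Trem2* side in both libraries. *C1qa*, which encodes a chain of the complement protein C1q, was at 4195 CPM with and 580 CPM without a *Trem2* UMI in CD (2.85, 2.61 to 3.11), and at 2232 and 567 CPM in HFD (1.98, 1.68 to 2.29). Complement genes were higher for 6 of 8 in both libraries (medians of 2.77 and 1.95, against -0.02 and 0.08 over all genes). *Apoe* was at 7123 and 773 CPM in CD (3.20) and at 7111 and 1123 CPM in HFD (2.66). *Fabp4* was at 452 and 42.5 CPM in CD (3.41) and at 1185 and 75.2 CPM in HFD (3.98). *Ctsb*, a lysosomal cysteine protease, was at 2910 and 692 CPM in CD (2.07) and at 4233 and 1093 CPM in HFD (1.95), and *Cd63* had ratios of 2.43 and 2.53. The LAM program had 15 of 25 genes higher in CD (median 1.39) and 17 of 26 in HFD (1.26), cathepsins 5 of 11 and 4 of 11 (0.93 and 0.79), and lysosomal membrane and hydrolase genes 7 of 19 and 7 of 23 (0.72 and 0.88). *Psap*, the most abundant gene of that last list, was at 2951 CPM with and 3935 CPM without a *Trem2* UMI in CD and at 3684 and 3997 CPM in HFD. Lipid uptake and binding genes were higher for 5 of 9 and lower for 1 in CD (1.46), and higher for 6 of 10 in HFD (1.11).

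Resident identity genes were on the same side more in CD, with 15 of 18 higher (median 2.06), than in HFD, with 4 of 13 (0.72), and this difference between the libraries was not tested. *Folr2* was at 489 CPM with and 88.9 CPM without a *Trem2* UMI in CD (2.46) and at 180 and 95.3 CPM in HFD (0.91).

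*Cd209a*, *Napsa*, *Itgax* and *Il1b* were on the other side. *Cd209a*, a dendritic cell marker, was at 14.9 CPM with and 128 CPM without a *Trem2* UMI in CD (-3.09) and at 35.9 and 251 CPM in HFD (-2.80), and 1 CD cell held 45.9% of the gated CD UMIs. *Napsa*, an aspartic protease of dendritic cells, was at 48.6 and 186 CPM in CD (-1.93) and at 10.3 and 160.5 CPM in HFD (-3.97). *Itgax* was at 37.4 and 174 CPM in CD (-2.22, -3.37 to -1.21) and at 66.7 and 150.5 CPM in HFD (-1.17, -2.24 to -0.19). *Il1b*, the inflammatory cytokine, had ratios of -1.30 and -1.38. *Cd209a* and *Napsa* were chosen for naming here after their values had been seen. MHC class II genes had medians of -0.29 and -0.72 and monocyte-derived genes of -0.24 and -0.67. *Lpl* was at a like level on both sides in CD (-0.13) but higher with *Trem2* in HFD (1.11, 0.92 to 1.31).

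**Figure D4:**
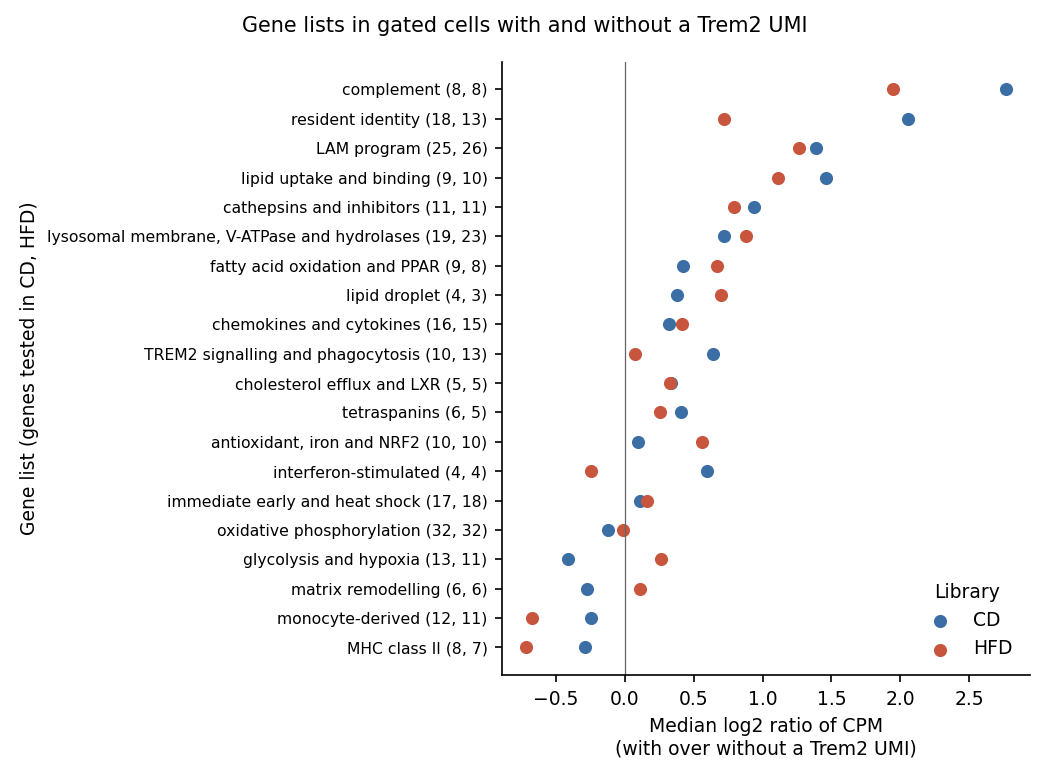
Median log2 ratio of CPM in gated cells with over without a *Trem2* UMI (x) for each gene list (y, with the genes counted in CD and HFD in brackets), CD in blue and HFD in red. The median for complement genes is at 2.77 in CD and 1.95 in HFD, and that for MHC class II genes is at -0.29 and -0.72.

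Cell by cell, the 30 genes of the LAM program took a median of 3.15% of the UMIs of gated CD cells, from 0.999 to 10.2%, against 3.06% in other CD cells. In HFD they took a median of 4.55% of gated cells, from 1.10 to 10.8%, against 2.90% in others. The others with at least 1000 genes had medians of 3.18% and 2.73%. Without *Ftl1*, ferritin light chain, the most abundant gene of the list, the order turned in CD, at 1.79% in gated and 2.10% in other cells, and held in HFD, at 3.09% and 1.97%. With a *Trem2* UMI the median was 4.14% in CD and 6.46% in HFD, and without one it was 2.06% and 2.31%. All 27 HFD cells with a *Trem2* UMI lay above the median of other HFD cells with at least 1000 genes, 2.73%, and 26 of them above its upper quartile, 4.19%. In CD, 21 of the 31 cells with a *Trem2* UMI lay above the matching median, 3.18%, and 13 above its upper quartile. Without *Ftl1*, the medians with a *Trem2* UMI were 2.85% and 4.41%, and 21 of 31 and 27 of 27 cells lay above those of the others.

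Between the diets, 42 of 2346 genes were at least 2-fold higher in gated HFD than in gated CD cells (1.79%) and 51 were lower (2.17%). In the other kept cells 23 of 2408 were higher (0.955%) and 47 lower (1.95%). Diet and library cannot be told apart here. The gated cells also met the gate in different ways. A *Trem2* UMI was seen in 31 CD and 27 HFD cells, but *Trem2* alone supplied the sum in 17 CD and 6 HFD cells. How far the diet ratios reflect this mix of cells was not tested. The LAM program had 5 of 26 genes higher and 0 lower in gated HFD cells, with a median of 0.59 against 0.03 over all genes. In the other kept cells it had 2 of 21 higher, with a median of 0.06 against -0.03 over all genes.

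Among the named genes, some had a higher diet ratio in gated than in other cells. *Cd36* (chromosome 5, 17781690 to 17888801), the fatty acid and oxidised lipoprotein receptor, was at 701 CPM in gated CD and 1801 CPM in gated HFD cells (1.36, 1.18 to 1.55), and at 816 and 980.2 CPM in the others (0.27). The difference of the 2 ratios was 1.10 (0.91 to 1.28). *Fabp4* (chromosome 3, 10204088 to 10208576) was at 251 and 624 CPM in gated cells (1.31) and at 249.5 and 192 CPM in the others (-0.38), a difference of 1.70 (1.38 to 2.01). One HFD cell held 19.1% of its gated HFD UMIs, and without that cell the diet ratio was 1.03. *Tspan3*, a tetraspanin, was at 74.1 and 175 CPM in gated cells (1.24) and at 110 and 95.9 CPM in the others (-0.19), a difference of 1.43 (0.85 to 2.01). *Cstb* was at 805 and 1917 CPM in gated cells (1.25) and had a ratio of 0.55 in the others, a difference of 0.70 (0.52 to 0.88). These genes were named for a high diet ratio in gated cells, so the differences are a description. After thinning to 2000 UMIs the diet ratios of *Fabp4* and *Cstb* were 0.34 and 0.60, within 2-fold.

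Like *Cstb*, further genes were higher in HFD in both gated and other cells. *Rgs1* had a diet ratio of 1.70 in gated and 1.66 in other cells, so that the 2 differed by 0.04 (-0.24 to 0.32), but after thinning to 2000 UMIs its ratio in gated cells was 0.78 and that of *Pold4* 0.72. *Hspa1a*, an inducible heat shock chaperone, had ratios of 1.25 and 0.70, a difference of 0.55 (0.18 to 0.91), and *Pold4*, a DNA polymerase subunit, of 1.19 and 0.65, a difference of 0.54 (0.03 to 1.05). *Hist1h2bc*, a histone, had ratios of 1.18 and 1.22. When a *Trem2* UMI was required, the diet ratios of *Hspa1a*, *Pold4* and *Thbs1* in gated cells were 0.65, 0.89 and 0.51. Without the cell with the most UMIs, that of *Pold4* was 0.93. *Thbs1*, a secreted matrix glycoprotein, was at 53.2 CPM in gated CD and 157 CPM in gated HFD cells (1.56), below its diet ratio of 2.98 in the others. Its gated CD level came from 28 UMIs in 4 cells, 53.6% of them in 1 cell. *Slpi*, a protease inhibitor, had a ratio of 2.27, but 1 HFD cell held 82.2% of its UMIs and without that cell the ratio was -0.18. All 28 gated CD UMIs of *Slpi* came from 1 cell, on which both ratios rest.

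On the lower side, *Aif1*, an actin-binding protein of macrophages, was at 249 CPM in gated CD and 88.8 CPM in gated HFD cells (-1.49, -2.07 to -0.94), with -1.70 in the others. After thinning to 2000 UMIs its ratio in gated cells was -0.50. *F13a1* was at 308 and 117 CPM (-1.40), with -1.33 in the others. *Ltc4s*, leukotriene C4 synthase, was at 359 and 101 CPM (-1.82), with -1.32 in the others, and *AY036118*, a long non-coding RNA, was at 304 and 109 CPM (-1.48), with -0.63 in the others. *Fcna*, a ficolin of resident macrophages, was at 255 and 86.2 CPM (-1.56), but 1 CD cell held 52.2% of it and the ratio without that cell was -0.54. Without the cells that held stromal, *Prg4* or *Ccl17* UMIs, the diet ratio of *Fcna* was -0.06. *Gngt2* was at 165 and 73.5 CPM (-1.17), against 1.22 in the others, and had a ratio of -0.83 without the gated CD cell with the most UMIs and of -0.95 with the mean of single-cell CPM. The diet ratios of *Cd36*, *Tspan3*, *Hist1h2bc*, *AY036118*, *F13a1* and *Ltc4s* were at least 2-fold under every alternative that gave a value and without the cell with the most UMIs. Resident identity genes were lower for 8 of 17 in gated cells (median -0.82), where 2.17% of all genes were lower, and for 12 of 19 in the others (-1.28), where 1.95% were.

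Single CD cells set several of the lower ratios. *Dcn* was at 908 CPM in gated CD cells and at 0 in gated HFD cells, at least 119-fold lower by a floor of 3 UMIs. *Mgp* was at 266 CPM and at 0, at least 35.0-fold lower. Both came from 1 CD cell in effect. *Gsn*, an actin-severing protein also made by stromal cells, was at 329 and 83.7 CPM (-1.97), with 53.2% in 1 CD cell and a ratio of -0.90 without it. *Ccl17* was at 173 and 45.7 CPM (-1.92), with 87.9% in 1 CD cell and a ratio of 1.09 without it, but 1 HFD cell held 88.9% of the gated HFD UMIs, so both ratios rest on single cells.

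**Figure D5:**
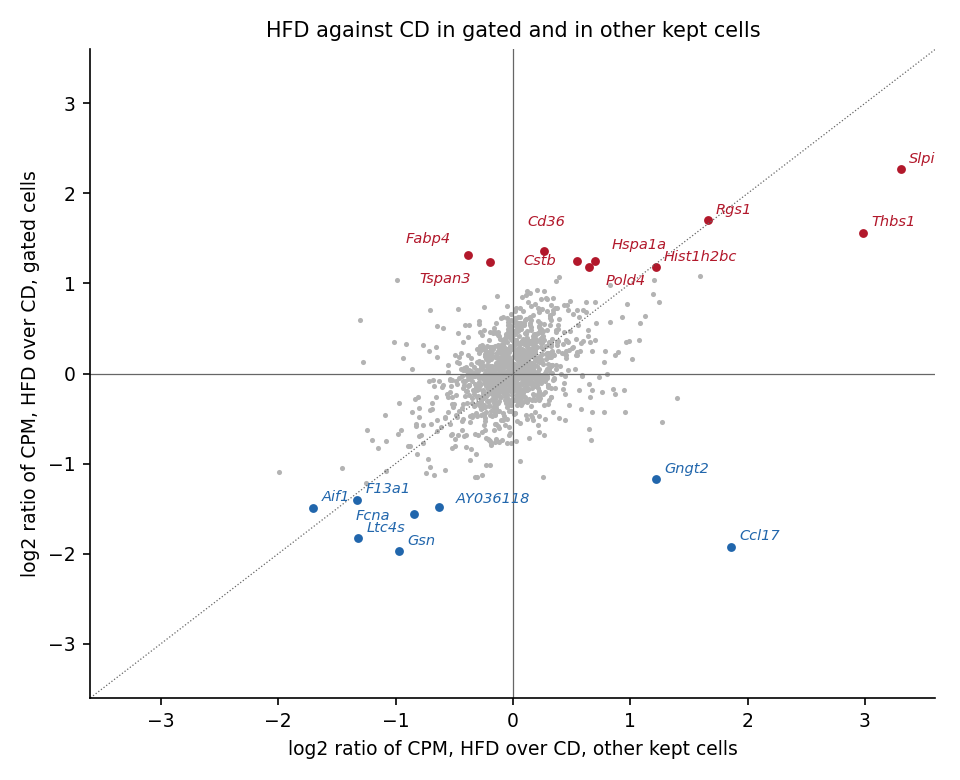
Log2 ratio of CPM in HFD over CD for other kept cells (x) and gated cells (y), for genes with a mean of at least 100 CPM in gated cells, with the named higher genes in red, the named lower genes in blue and a dotted line where both ratios are equal. *Cd36* and *Fabp4* lie above the line at 1.36 and 1.31 and *Rgs1* lies on it, while 2 of 1253 genes fall outside the axes and *Mgp* and *Dcn*, at 0 in gated HFD cells, are not drawn.

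Of the 20 genes higher in gated cells of both libraries, 11 had a promoter in the table, 15 promoters in all. Each was searched on both strands for TGANTCA (AP-1), CACGTG (E-box), TGACNNNGC (NRF2) and ACGTG (HIF), and for the longer CLEAR, PPAR DR1 and LXR DR4 elements. CLEAR contains the E-box, which in turn contains the HIF letters. TGANTCA was in a promoter of 3 of the 11 genes (27.3%: *Aprt*, *Itgax*, *Rnh1*), against 7.18% of the counted genes with a promoter and 7.81% of all 32851 promoters of the table. Among the genes lower in both libraries it was in 5 of 29 with a promoter (17.2%). In *Itgax* it starts 56 bases before the start site and in *Rnh1* 179 bases before it. CACGTG was in 2 of 11 (18.2%: *Gdf15* and another promoter of *Rnh1*), against 12.4% of the counted genes and 7.15% of all promoters, and in *Gdf15* it starts 83 bases before the start site. The share among the 11 genes and the counted genes was 18.2% against 20.3% for TGACNNNGC and 27.3% against 30.6% for ACGTG, and the 3 longer motifs were in none of the 11, against 0.927% of the counted genes for CLEAR and 0% for DR1 and DR4. A match is a stretch of letters and not a measured binding site.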

How the data were processed

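Single-cell libraries of 1 CD and 1 HFD pool of sorted ATMs were used. The authors deposited raw counts of UMIs per gene and barcode, without normalization, and the submitters' processing notes name Cell Ranger 3.0.2 and mm10. The members, gene lists and comparisons were chosen with earlier results of these data known. The deposited counts were summed over cells, with Python 3.11.15, numpy 2.4.6, scipy 1.17.1 and pandas 2.3.3. Intervals at 95% were exact Poisson for CPM, exact conditional binomial for log2 ratios, Clopper-Pearson for shares and Newcombe for a difference between shares. Of 31053 genes, those with a mean of at least 50 CPM over both groups were counted, and a difference was called at 2-fold. Named genes were the 15 highest and 10 lowest by the smaller ratio of both libraries, the 10 highest and 10 lowest HFD over CD ratios in gated cells with a mean of at least 100 CPM and an interval that left out 0, and list examples, without mt-, Rpl, Rps, Gm and Rik genes. Of these, 1 gene is not reported here and not plotted. The filters removed 2059 CD and 1132 HFD barcodes for mitochondrial UMIs, 29 and 16 for under 200 genes and 23 and 6 for over 3500 genes, some for more than one reason. Of the removed barcodes, 5 of 2095 CD and 3 of 1142 HFD met the gate. Doublets were kept. Scrublet (scanpy 1.11.5) called 0 by its own threshold in each library, so the highest scores up to the expected rates of 3.57% and 2.53% (159 and 80 barcodes) were left out as an alternative. Calls and intervals were tested on Poisson counts simulated without spread between cells. That test does not cover genes whose UMIs lie mostly in 1 cell. Positions are from the GENCODE annotation of GRCm38 and promoters from RefSeq.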

Additional observations from a re-analysis of the deposited data

Results flagged for a closer look

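Of 245 genes checked, 15 were flagged for ratios in opposite directions in the 2 groups compared, in 20 comparisons. In each of the 20 both intervals left out 0. Other genes also had opposite signs but were not flagged. One was *Gdf15*, with diet ratios of -0.27 (-0.83 to 0.28) in gated and 1.40 in other cells. None of these differences was tested, since each diet had 1 library.

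Between gated and other kept cells, 6 of the flagged genes had opposite signs in CD and HFD. *Cd36* had a log2 ratio of -0.22 in CD and 0.88 in HFD, *Tspan3* of -0.57 and 0.87, *Lgals1*, which encodes galectin-1, of -0.14 and 1.10, and *Cd209a* of -0.96 and 1.07. The order was the opposite for *Lyz1*, lysozyme, at 0.51 in CD and -0.86 in HFD, and for *Il1b* at 0.87 and -0.39.

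Between HFD and CD, 14 of the flagged genes had opposite signs in gated and other kept cells. Higher in HFD in gated cells and lower in the others were *Fabp4* (1.31 and -0.38), *Tspan3* (1.24 and -0.19), *Lgals1* (0.33 and -0.91), *Emp1* (0.71 and -0.71), the chemokines *Pf4* (0.32 and -0.77) and *Ccl7* (0.35 and -1.02), the gelatinase gene *Mmp9* (1.18 and -0.30) and *Cd209a* (1.04 and -0.99). Lower in gated cells and higher in the others were *Gngt2* (-1.17 and 1.22), *Hbb-bs* (-2.09 and 0.33), *Ccl17* (-1.92 and 1.86), the phosphofructokinase gene *Pfkp* (-1.15 and 0.26), *Lyz1* (-0.42 and 0.95) and *Il1b* (-0.62 and 0.65). Without the CD cell that held 87.9% of its UMIs, *Ccl17* was higher in HFD in gated cells too (1.09), but 1 HFD cell held 88.9% of the gated HFD UMIs. Without the gated cell with the most UMIs of the gene, the ratio in gated cells was 0.02 for *Pf4* and -0.19 for *Ccl7*.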

How the results depend on the processing

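No paired analysis was possible because each diet had 1 library without a replicate number, and for the same reason no replicate could be left out. Of the 67 named gene ratios, 58 kept their sign under every alternative run and 26 were at least 2-fold under every one. Shares of gated cells moved with depth and with the gate. Requiring a *Trem2* UMI gave 1.31% in CD and 1.34% in HFD, a sum of at least 3 UMIs gave 1.48% in CD, at most 5% mitochondrial UMIs gave 3.46% and 3.53%, and at least 1000 genes gave 4.26% in HFD and a difference of 1.55 points. Thinning each cell to 2000 UMIs gave 0.388% and 1.36%, from 8 and 17 cells.

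Counts of 2-fold genes moved by over 1.5 times as follows. With a *Trem2* UMI required, 77 genes were lower in CD, 201 higher and 146 lower in HFD, 36 higher and 24 lower in both libraries, and 172 higher and 144 lower in HFD than in CD gated cells. With a sum of at least 3 UMIs, 114 were higher and 108 lower in HFD, 34 higher in both, and 66 higher and 81 lower between the diets. After thinning, which left 8 gated CD and 17 gated HFD cells of 2000 UMIs each, few UMIs stood behind a gene near the limit. In that setting 645 were higher and 291 lower in CD, 564 and 277 in HFD, 110 and 75 in both, and 418 and 665 between the diets. With at least 1000 genes, 39 were lower in HFD and 16 in both, and with at most 5% mitochondrial UMIs 16 were lower in both. With cells weighted to like UMIs per cell, 35 were higher and 29 lower in CD, 27 lower in HFD, 7 lower in both, and 92 higher and 91 lower between the diets. Without mitochondrial, ribosomal protein and *Malat1* UMIs, 66 were higher between the diets. With the mean of single-cell CPM, 136 were higher and 193 lower in HFD, 35 and 88 in both, and 80 higher between the diets. With a mean of at least 20 CPM, 140 were higher and 293 lower in CD, 155 and 205 in HFD, 35 and 85 in both, and 216 and 175 between the diets. With a mean of at least 100 CPM, these were 35 and 55, 36 and 26, 11 and 16, and 16 and 24.

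Some named ratios changed sign. *Gngt2* in HFD went to -0.13 without *Hilpda* in the sum and to -0.16 with a sum of at least 3, and the diet ratio of *Slpi* went to -1.58 without *Hilpda*. With a *Trem2* UMI required, *Avpi1* and *Tnip3* in CD went to -0.19 and -0.14 and the diet ratio of *Gsn* to 0.0574. After thinning, which left 8 gated CD and 17 gated HFD cells, *Tnip3* in CD went to -0.61 and *Lat2* in HFD to -0.31. *Hba-a1* in HFD went to 1.08 with at least 1000 genes and to 0.38 with the upper limits on genes and UMIs per gene of the study's methods. Without cells with stromal, *Prg4* or *Ccl17* UMIs, chosen after seeing the data, *Hba-a2* and *Hbb-bs* in CD went to 0.0457 and 0.128. In the same setting further ratios kept their sign but fell within 2-fold. These were *Hba-a1* (-0.53) and *Lat2* (0.94) in CD and *Gngt2* in HFD (0.28). The same held for the diet ratios of *Gsn* (-0.83), *Ccl17* (-0.68) and *Fcna* (-0.06). The cause of these changes was not tested. Leaving out the highest Scrublet scores, which held 1 CD and 2 HFD gated cells, allowing endothelial UMIs and centring the ratios on their median moved no share or count past these limits. At the depth of the gated HFD cells, 0 UMIs allow a level of up to 7.61 CPM.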
